A study of Mus musculus with 12 samples.

Results

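Of the lincRNA probes on an array hybridised with 12 mouse iPS cell clones, 1501 gave a signal above background in some clones and not in others. LincRNAs are long RNAs transcribed from stretches between the protein-coding genes. The array carried 14583 probes for such regions on chromosomes 1 to 19 except 8, each named by the interval and strand it reads rather than by a gene. The 1501 probes were chosen by their own detection: the scanner software called them well above background (here "detected") on 3 to 9 of the 12 arrays, so the number of arrays is a description and not a result. They lay in 1137 of 4140 strand-specific regions and are called the variably detected probes below.

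LincRNAs are spliced and polyadenylated like mRNAs but encode no protein, and as a class they are expressed at lower levels and in fewer cell types than protein-coding genes. In pluripotent stem cells some of them take part in silencing or activating genes, on the same chromosome or elsewhere.

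The study compared Aid+/+ with Aid-/- iPS cell clones, and 12 of them were hybridised, 1 array each. The 6 Aid+/+ clones were 967B2, 967B4 and 967B6 (series 967B) and 979B1, 979B3 and 979B4 (series 979B), and the 6 Aid-/- clones were 979F1, 979F2 and 979F3 (series 979F) and 981E1, 981E4 and 981E5, called the slide 3 Aid-/- series below. All 12 were male, of mixed C57BL6, DBA and 129S4 background, and carried a Nanog-GFP reporter with puromycin selection. They came from embryonic fibroblasts by retroviral Oct3/4, Sox2, Klf4 and c-Myc. With LIF and puromycin they were passaged first on feeder cells and then, to exclude feeder cells, on gelatin, up to passage 6. A clone here is the progeny of 1 picked colony. The study checked the independence of clones by the integration pattern of the Klf4 transgene, and some picked colonies were apparently the same clone. None of the pairs it lists as such lies within the 12. Series 967B lay alone on slide 1 and 979F alone on slide 2, so for these series and slide cannot be told apart, whereas 979B and the slide 3 Aid-/- series were scanned on the same slide.

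Levels are log2 signals with the 75th percentile of each array set to 0. All 12 pluripotency markers examined (among them Pou5f1, Nanog, Sox2 and Esrrb) were detected on all 12 arrays. Of 12 fibroblast markers, 5 were detected on every array and Lum on none. Their summed linear level was 1.94 in clone 967B4, where 5 were detected, against 15.8 to 47.9 in the other Aid+/+ and 37.6 to 99.0 in the Aid-/- clones. Clone 967B4 thus stood apart from the other clones, and the counts of calls are given without it too.

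The variably detected probes made up 10.3% of the lincRNA probes, against 6.59% (2601 of 39487) for gene probes taken by the same rule. A further 39.9% of the lincRNA probes were detected on no array and 34.2% on all 12, while the same shares were 25.2% and 57.8% of the gene probes. The number of probes at each breadth ran from 291 on 3 arrays down to 182 on 8 and 212 on 9. Just outside the rule, 457 probes were detected on 2 arrays and 221 on 10. The median level rose with breadth across both boundaries, at -5.54 for probes on 2 arrays, -5.25 on 3, -4.42 on 9 and -4.28 on 10, against -2.17 for those on all 12.

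**Figure D1:**
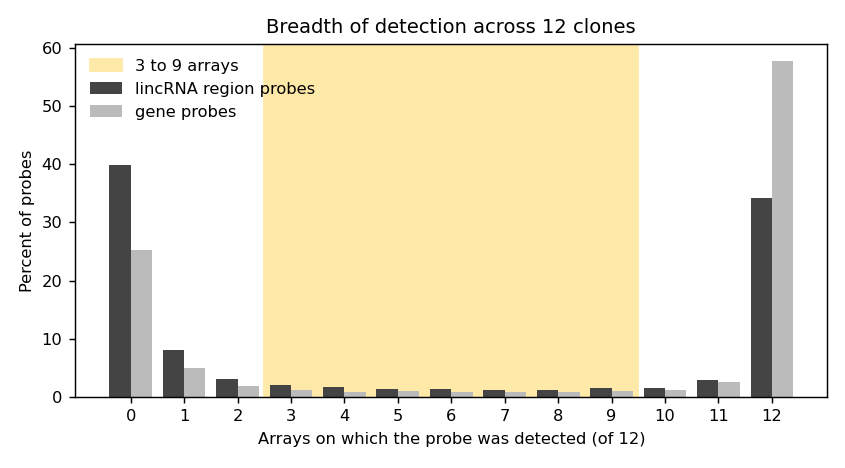
Percent of 14583 lincRNA region probes and of 39487 gene probes (y axis) by the number of the 12 arrays on which each was detected (x axis). Both kinds pile up at 0 and 12 arrays, and the shaded range of 3 to 9 arrays holds 10.3% of the lincRNA and 6.59% of the gene probes.

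Most variably detected probes sat near the detection limit. Their median level was -4.84 and the median difference between a probe's highest and lowest clone was 2.06 on the log2 scale. The gap of a probe is the lowest level among the arrays that detected it minus the highest among those that did not. The median gap was 0.0931, 987 of the 1501 gaps (65.8%) were above 0, 29 were over 1 and 5 were over 2. Among the gene probes of the same breadth 69.4% of gaps were above 0 and 2.96% were over 1, against 1.93% here. For most regions the flag therefore divided clones whose levels nearly met, and a small set had levels that lay well apart.

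The number of the 1501 probes detected in a clone overlapped between the genotypes. The same flags chose the probes, so these numbers are a description. Clone 967B2 detected 342 of them, 967B4 detected 910 and 967B6 detected 844. The clones of series 979B detected 580, 836 and 842, those of series 979F 826, 510 and 839, and those of the slide 3 Aid-/- series 585, 816 and 702. The range was 510 to 839 in Aid-/- and 342 to 910 in Aid+/+ clones. The means were 713 ± 139 (SD, n = 6) in Aid-/- and 726 ± 220 (SD, n = 6) in Aid+/+ clones, a difference of -12.7. Within slide 3 the difference was -51.7 and within experiment 979, the number that series 979B and 979F share, it was -27.7. Without 967B4 it was 24.2 and without 967B2 it was -89.4.

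The arrays themselves differed in where detection began. The level that best divided detected from undetected probes ran from -4.94 in 979F3 to -4.44 in 967B2, and 56.9% to 60.5% of all probes on the array were detected. The 5 clones with the highest limits, 967B2, 979B1, 981E5, 979F2 and 981E1, were the 5 with the fewest detected members, at 342 to 702. With -4.44 applied to every array in place of the flag, a choice made after these values were seen, 1270 probes passed on 3 to 9 arrays, 854 of them members. The number above that level then ran from 509 in 979F2 to 716 in 981E5, and 967B2 had 541.

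**Figure D2:**
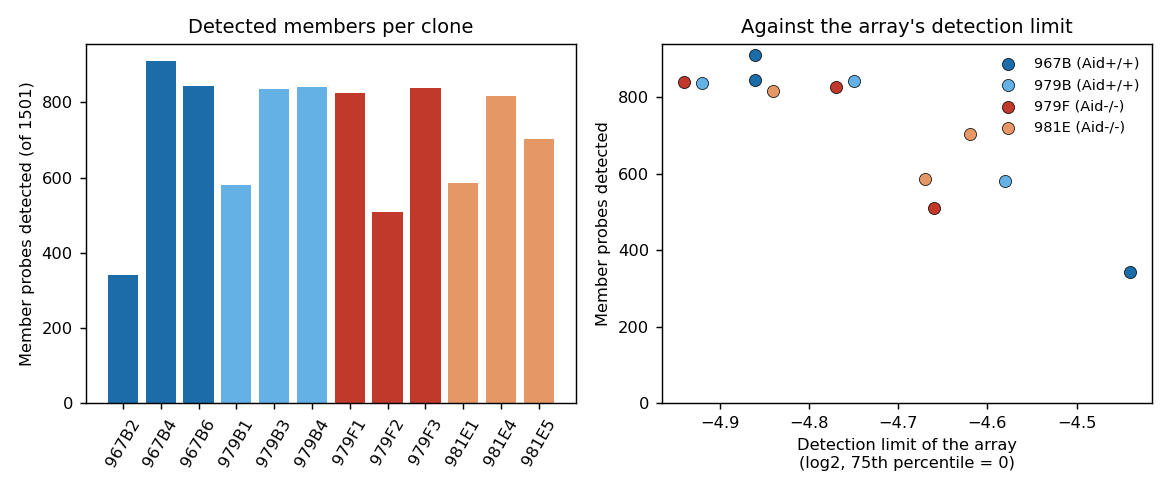
Left, the number of the 1501 probes detected in each clone (bars, coloured by series). Right, the same numbers (y axis) against each array's detection limit in log2 units (x axis), where 967B2, with 342 probes, has the highest limit at -4.44.

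Clones of the same series were the most alike. For each of the 12 clones the nearest clone by mean absolute log2 difference over the 1501 probes was from its own series, and so was the clone with which it shared the largest part of its detected probes. The mean difference was 0.661 over the 12 pairs within a series (0.561 to 0.848), 0.792 over the 18 pairs of other series with the same genotype (0.734 to 0.911) and 0.791 over the 36 pairs of unlike genotype (0.622 to 0.963). On slide 3, where series are not split by slide, the 9 pairs of unlike genotype averaged 0.813. The shared part of detected probes averaged 39.1% within series, 31.3% between series of the same genotype and 31.4% between genotypes. These are descriptions over probes chosen on the same arrays, and the 3 clones of a series also share a slide. The pair of unlike genotype that lay closest was 967B6 and 981E1, on different slides. The clones farthest from the rest were 967B4 (0.835) and 981E5 (0.819), against 0.728 to 0.781 for the other 10, and 967B4 alone of its series detected 312 of the probes.

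**Figure D3:**
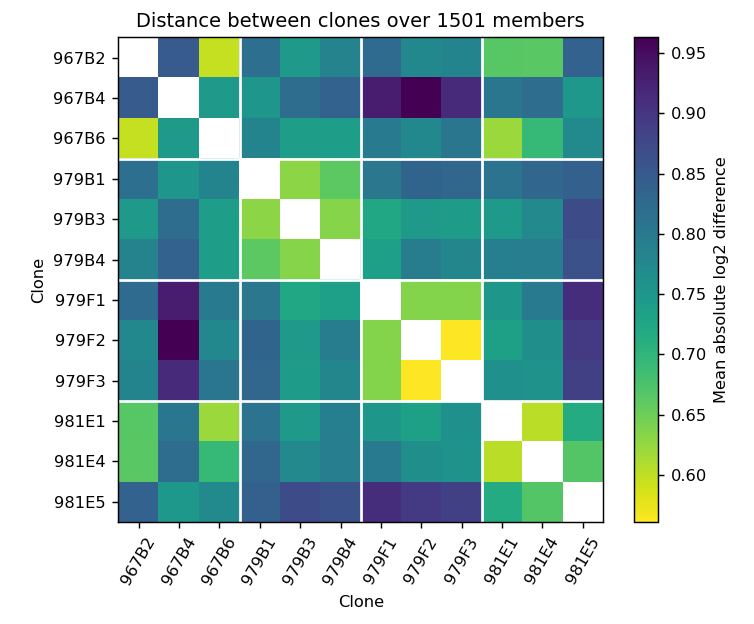
Mean absolute log2 difference over the 1501 probes for each pair of clones (colour, lower is more alike), with white lines between the series. The squares along the diagonal, pairs of the same series, average 0.661, and the rows of 967B4 and 981E5 are the darkest.

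Detection seldom followed whole series in all 4 series at once, though a single series was often wholly on or off. Series 979F detected 305 of the probes in all 3 clones and 327 in none, and 979B 305 and 298. For 967B these numbers were 165 and 259, and for the slide 3 Aid-/- series 251 and 343. The same flags chose the probes, so these are descriptions. The 1501 probes showed 906 different patterns over the 12 clones, and 583 of them had a pattern of their own. In 60 probes (4.0%) every series was detected either on all 3 or on none of its clones, against 3.58% of the gene probes of the same breadth and 0.296% of all 55681 probes, most of which were detected on all or no arrays. Of the 60, 28 were on in 1 series only, 11 in 2 series and 21 in all but 1. Both genotypes were among the clones that detected 1375 of the probes (91.6%), while 52 (3.46%) were detected in Aid-/- clones only and 74 (4.93%) in Aid+/+ clones only. The same shares of other probes were not computed. A probe on as few as 3 arrays can miss a genotype by its breadth alone, so these counts are descriptions. For 606 probes all 4 series held a clone that detected them.

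Series 979B alone detected 11 probes (0.733% of the members, background 0.0305% of all probes), 979F alone 10 (background 0.0467%), 967B alone 4 (background 0.0126%) and the slide 3 Aid-/- series alone 3 (background 0.0305%). Another 8 were missed by 979F alone (background 0.0287%), 6 by 979B alone (0.0359%), 6 by the slide 3 Aid-/- series alone (0.0323%) and 1 by 967B alone (0.0144%). Since the members were chosen for partial detection, these shares lie above the background by construction.

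The levels of some probes differed between series. A limma F test for any difference between the 4 series called 99 of the 1501 probes (6.6%) at an adjusted p under 0.05, against 4.16% of all 55681 probes, 7.07% of the gene probes of the same breadth and 7.94% of the lincRNA probes detected on all 12 arrays. The 99 probes lay in 89 regions. Of the 106 members on chromosome 4, 14 were called, and of the 78 on chromosome 14, 10 were. These were the highest counts, and the other chromosomes had 2 to 8. Several of the calls on chromosome 4 were probes of the same interval. The lowest mean of the called probes was most often in 979F (33 probes) and their highest most often in the slide 3 Aid-/- series (37 probes). Neither the chromosome nor the series counts were set against those of all probes. Of the 60 probes with a whole-series pattern, 34 were called, a share in part built in because the same arrays defined the pattern. Without clone 967B4 the count was 158 and without 979F3 it was 37, and leaving out any clone other than 967B2, 981E1 or 981E4 moved it by over 1.5 times.

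The region with the widest separation was chr13:31736054-31781679 (mm9), read on its reverse strand by 8 probes. Of these 8 probes, 4 were members, and none of the 4 was detected in series 979F. Probe A_30_P01021308 read -7.12, -6.95 and -7.23 in 979F1, 979F2 and 979F3, while 967B2, 967B4 and 967B6 read -1.56, -2.3 and -1.32. It read -0.67, -1.09 and -1.04 in the 979B clones and -1.64, -1.18 and -0.68 in 981E1, 981E4 and 981E5. The gap was 4.65, the largest of all members, and the 9 clones with signal did not overlap the 3 without. Against 979B, the Aid+/+ series of the same experiment number, the level in 979F fell by 6.17 on the log2 scale (limma adjusted p = 2.96e-05), and 979F was not detected. With each undetected clone set at its array's detection limit, the signal in 979B was at least 14.5-fold higher. Against the lowest signal that each array detected it was 71.8-fold, which is near the plain difference and no firm bound.

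The other probes of that strand behaved alike in part. A_30_P01030974 (979F minus 979B, -6.1; limma adjusted p = 0.00104) and A_30_P01027538 (-4.39; limma adjusted p = 0.00315) had the same pattern of detection, with gaps of 3.76 and 2.53. The fourth member, A_30_P01029779, was detected on 8 arrays and averaged -6.96 in 979F against -3.99 in 967B, -3.23 in 979B and -3.92 in the slide 3 Aid-/- series. A_30_P01021443 and A_30_P01025810, detected on 10 and 11 arrays and so outside the rule, gave -2.95 and -1.31 for 979F minus 979B (limma adjusted p = 0.0121 and 0.0316). Both were detected in 979F1, at -4.45 and -4.55, and A_30_P01025810 also in 979F3, at -4.69. The remaining 2 were detected on 0 and 1 array. On the forward strand of the same interval 6 of 8 probes were detected on no array, but A_30_P01022071, detected on 10, averaged -6.02 in 979F and -0.6 in 979B. In 979F1 it was detected, at -3.78, while it read -6.99 in 979F2 and -7.28 in 979F3. Series 979F lay alone on slide 2, so slide and series cannot be told apart. The summed fibroblast marker level was 66.8 to 99.0 in 979F, 80.6 in 981E4 and 1.94 to 47.9 in the other 8 clones, and its part in these differences was not tested.

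**Figure D4:**
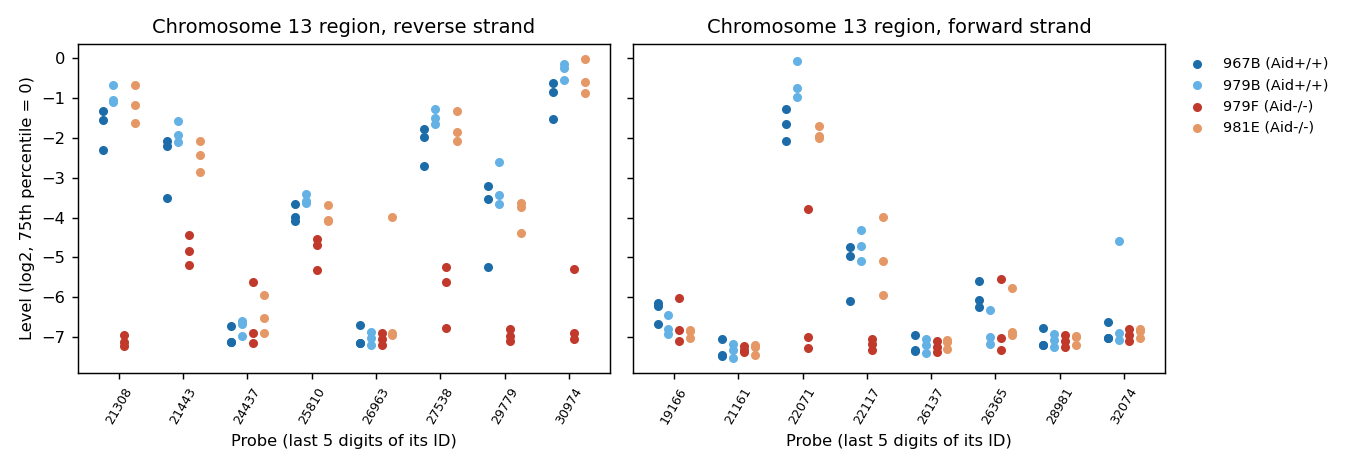
Level in each clone (y axis, log2) for every probe of the chromosome 13 interval (x axis), reverse strand left and forward strand right, coloured by series. In 979F probe A_30_P01021308 lies between -7.23 and -6.95, and in the other 9 clones between -2.3 and -0.67.

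Series 979B had its own region on the opposite side. Of 5 reverse-strand probes of chr4:140609589-140614789, 3 were detected in all 979B clones and in no other, and 2 on no array. A_30_P01031606 read -3.29, -3.77 and -3.27 in 979B1, 979B3 and 979B4. Its levels in the other 9 clones lay between -7.33 and -6.09, so the gap was 2.32. On slide 3, Aid-/- minus Aid+/+ was -3.56 on the log2 scale (limma adjusted p = 0.00066), which makes 979B at least 2.42-fold higher at the detection limits (11.6-fold against the lowest detected signals). The companion probe A_30_P01027509 gave -3.32 for that difference (limma adjusted p = 0.00289) and a gap of 1.43, and A_30_P01020469 gave -1.86 (limma adjusted p = 0.0325). On the forward strand of the interval no probe was a member: 3 of 5 were on no array, 1 on 1 and 1 on 11.

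A longer interval on the same chromosome, chr4:145000941-145148666, was highest in 979B on its forward strand and mixed on its reverse strand. On the forward strand A_30_P01022268 read -2.57, -2.08 and -1.88 in the 979B clones and -6.66 to -4.53 in the other 9, and 979B was at least 5.8-fold above the slide 3 Aid-/- series at the detection limits (12.2-fold against the lowest detected signals; log2 difference Aid-/- minus Aid+/+ -3.61, limma adjusted p = 0.00199). A second forward member, A_30_P01020199, averaged -3.19 in 979B and -6.18 to -5.43 in the other series. The remaining 3 forward probes, on 11 or 12 arrays, were also highest in 979B, for example A_30_P01023223 at -1.44 against -2.63 to -2.52. On the reverse strand the member A_30_P01022459 was instead lowest in 979B, at -6.72 against -4.66 in the slide 3 Aid-/- series (difference 2.06, limma adjusted p = 0.00938). It was detected on 3 arrays only, 967B6, 981E4 and 981E5. The 2 other reverse probes were detected on all 12 arrays and differed by 0.03 and 0.7 (limma adjusted p = 0.967 and 0.155).

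A few probes followed a pair of series instead. At chr16:7947710-7948066, reverse strand, A_30_P01023334 was detected in both series numbered 979 and in neither of the others: it read -3.68, -3.31 and -3.05 in 979B, -2.99, -3.85 and -4.04 in 979F, -6.66, -7.1 and -7.07 in 967B and -6.86, -5.76 and -6.84 in 981E1, 981E4 and 981E5. Aid+/+ and Aid-/- clones thus lay on each side, on 3 slides, and the genotype difference was 0.09 (limma adjusted p = 1). A_30_P01030033 of the same region, detected on 9 arrays, gave -2.56 for the slide 3 series, Aid-/- minus Aid+/+ (limma adjusted p = 0.00201), and the third probe, on all 12 arrays, gave -0.63 (limma adjusted p = 0.154). On chr2:127988295-128194920, forward strand, A_30_P01021819 had the same pattern with a gap of 1.03. The other 4 of the 5 probes of that strand were detected on no array.

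The reverse of that pattern occurred at chr18:4420141-4420620, forward strand. There A_30_P01026341 read -4.27, -3.87 and -4.22 in 967B and -4.3, -3.95 and -2.4 in 981E1, 981E4 and 981E5, against -7.12 to -6.19 in the 6 clones numbered 979. The gap was 1.89 and the slide 3 Aid-/- series was at least 2.3-fold above 979B at the detection limits (8.0-fold against the lowest detected signals; log2 difference 3.0, limma adjusted p = 0.00659). The region's other probe, A_30_P01022295, was detected on the same clones except 967B2. At chr15:5969454-5994540 the forward-strand probe A_30_P01025299 showed the pattern with a gap of 1.02. Of the 10 probes of that strand 7 were detected on no array. A_30_P01023850 was detected on the same clones except 967B4, and A_30_P01024997 in 1 clone of each series (series F test, limma adjusted p = 0.997). The pair patterns were 4 probes for the series numbered 979 (background 0.0233%), 2 for 967B with the slide 3 Aid-/- series (0.0323%), 1 for both series of slide 3 (0.0018%) and none for 967B with 979B or with 979F. These pair-pattern probes, and the region probes that are not among the largest gaps or calls, were chosen after their values were seen.

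Not every wide gap followed a series. A_30_P01023419 at chr6:120613889-120648725, reverse strand, the only probe of its region, was detected in 1 clone of each of 3 series. It read -0.71 in 979F3, -3.93 in 979B4 and -3.92 in 981E5, and -7.25 to -6.68 in the other 9 clones. The gap was 2.75, the third largest, and the series F test gave a limma adjusted p of 0.838. Of the 29 probes with a gap over 1, which lay in 24 regions, 12 (41.4%) had a whole-series pattern and 17 did not.

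**Figure D5:**
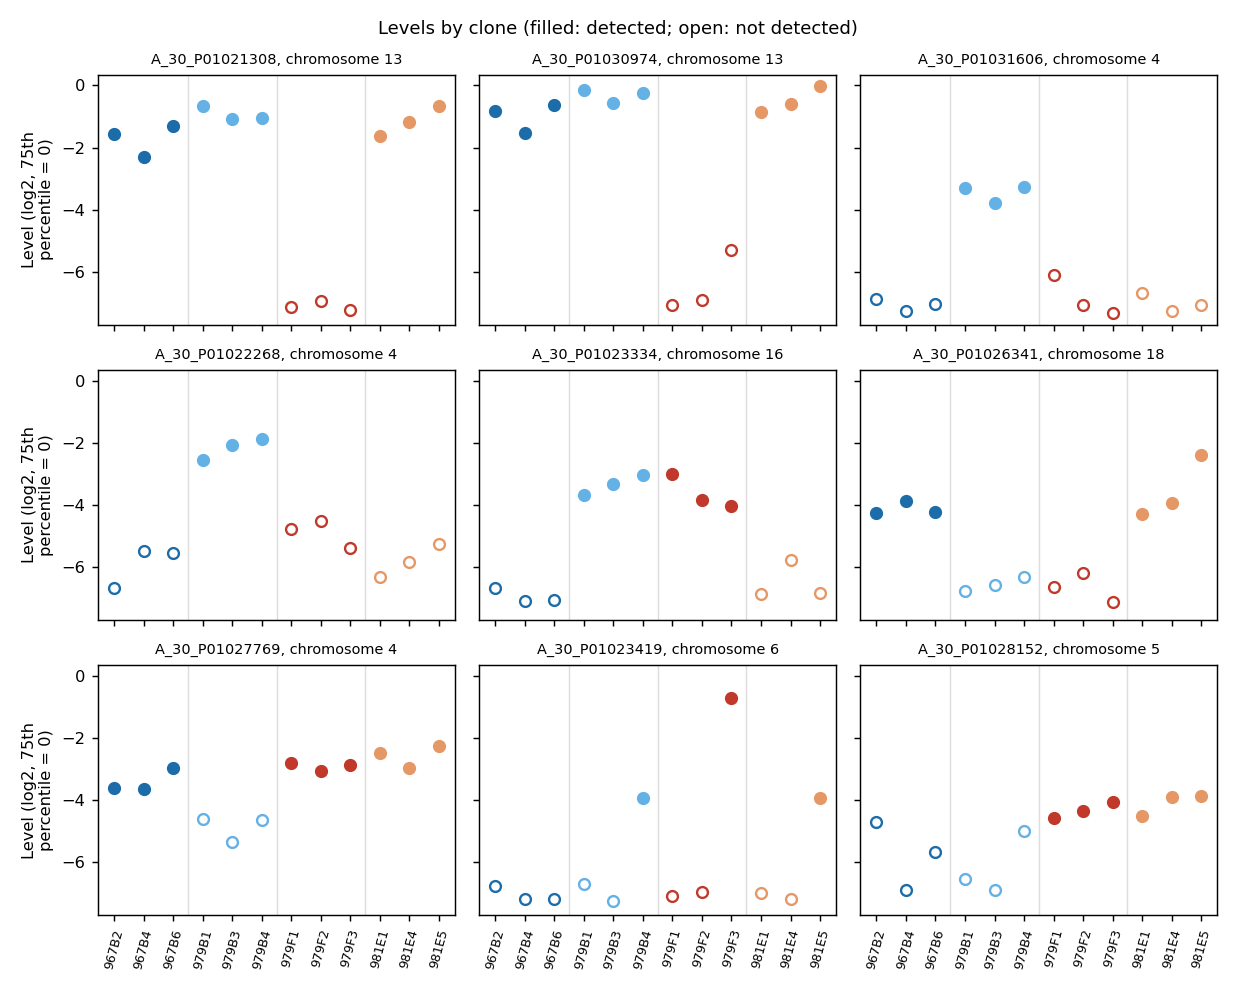
Level in each clone (y axis, log2) of 9 variably detected probes, by clone (x axis) and coloured by series, filled where detected. The chromosome 13 probes are low in 979F only, the upper right and middle left chromosome 4 probes are high in 979B only, and the chromosome 6 probe is high in 979B4, 979F3 and 981E5.

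The comparison of the 2 series of slide 3 called 65 of the 1501 probes at an adjusted p under 0.05 and a change over 2-fold. Of these, 41 were higher in the Aid-/- series (1.37% of all probes) and 24 lower (0.761%). The 65 were 4.33%, against 2.13% of all probes, 5.69% of the gene probes of the same breadth and 3.61% of lincRNA probes on all 12 arrays. Without 967B4, which enters only through the shared estimate of spread, 99 were called, without 979B3 it was 27 (967B4, 979B1, 979B3, 979B4 and 981E5 each moved it by over 1.5 times), and with normexp background correction 2 passed. The higher call with the smallest adjusted p was A_30_P01027769 at chr4:135896689-135918414, reverse strand. It read -4.59, -5.33 and -4.63 in the 979B clones, where it was not detected, and -2.49, -2.95 and -2.25 in 981E1, 981E4 and 981E5, a difference of 2.29 (limma adjusted p = 0.00277) and at least 4.43-fold at the detection limits (4.88-fold against the lowest detected signals). Every clone of 967B (-3.65 to -2.97) and 979F (-3.06 to -2.8) lay above those of 979B too. The next higher calls were on chromosome 14, A_30_P01019075 at chr14:22267795-22319045 (1.2, limma adjusted p = 0.00326) and A_30_P01028295 at chr14:78957377-78963514 (2.07, limma adjusted p = 0.00329), both forward.

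Within experiment 979, 20 of the 1501 probes were called between 979F and 979B, 8 higher in 979F (0.171% of all probes) and 12 lower (0.253%). The 20 were 1.33%, against 0.424% of all probes, 1.0% of the gene probes of the same breadth and 0.642% of lincRNA probes on all 12 arrays. Leaving out 967B4 raised the count to 37, leaving out 979F2 lowered it to 4, and leaving out any clone but 981E5 moved it by over 1.5 times. For 5 members, all lower (0.333%, against 0.106% of all probes in either direction and 0.0575% lower), the genotype difference of experiment 979 departed from that of the other clones at an adjusted p under 0.05 and over 2-fold. In either direction the share was 0.269% of the gene probes of the same breadth and 0.201% of lincRNA probes on all 12 arrays. The 3 lower calls with the smallest adjusted p were those of the chromosome 13 region. The 3 higher ones were A_30_P01027769 (1.94, limma adjusted p = 0.0166), A_30_P01020525 at chr2:94017095-94019092, reverse strand (2.21, limma adjusted p = 0.0198), and A_30_P01025542 at chr1:134167181-134181386, reverse strand (1.91, limma adjusted p = 0.0433). The first 2 of these were not detected in any 979B clone but were in at least 2 clones of 967B, the other Aid+/+ series.

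Between the genotypes, 2 of the 1501 probes were called (0.133%, against 0.0341% of all probes), both higher in Aid-/- clones (0.0251% of all probes), and 246 had an unadjusted p under 0.05 (16.4%, against 13.6% of all probes). For gene probes of the same breadth these shares were 0.0769% and 16.2%, and for lincRNA probes on all 12 arrays 0.0401% and 17.9%. The methods' t-test with Benjamini-Hochberg adjustment and the same fold called 5. The first, A_30_P01029269 at chr5:111565658-111566257, forward strand, read -5.07 to -4.26 (median -4.82) in Aid-/- and -6.9 to -5.63 (median -6.39) in Aid+/+ clones. The groups did not overlap, the difference was 1.53 ± 0.22 (SE; limma adjusted p = 0.0368), and 3 of 6 Aid-/- and no Aid+/+ clones detected it. The second, A_30_P01025542, read -5.47 to -4.73 (median -4.86) in Aid-/- and -7.15 to -5.93 (median -6.9) in Aid+/+ clones, a difference of 1.67 ± 0.24 (SE; limma adjusted p = 0.0368), and only the 979F clones detected it. Each probe was detected in 3 of the 12 clones, so no fold is given for either. Without 967B4 the first was still called (1.41, limma adjusted p = 0.0467) and the second was not (1.62, limma adjusted p = 0.0554), which left 1 call. Neither was called with slide or series as a random block or with normexp background correction, and leaving out any clone but 967B6 or 981E5 changed the count, which then ran from 0 to 4.

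In 4 probes detection itself divided the genotypes, on in all 6 Aid-/- and off in all 6 Aid+/+ clones (background 0.00718% of all probes, which is these same 4), and no member showed the reverse. None of the 4 was called by genotype. With -4.44 applied to every array in place of the flag, none of the 4 kept this pattern. A_30_P01028152 then fell below it in 979F1 (-4.58) and 981E1 (-4.51). A_30_P01019747, at -4.91 to -4.6 in Aid-/- clones, lay below it throughout. The widest gap of the 4, 0.12, was that of A_30_P01028152 at chr5:111538420-111540142, forward strand. It read -4.58, -4.35 and -4.07 in 979F, -4.51, -3.9 and -3.85 in 981E1, 981E4 and 981E5, -4.7, -6.9 and -5.67 in 967B and -6.53, -6.87 and -5.0 in 979B, a genotype difference of 1.73 ± 0.38 (SE; limma adjusted p = 0.0998). The other 3 were A_30_P01019747 at chr19:4209657-4210475 (0.88, limma adjusted p = 0.177), A_30_P01018888 at chr6:129151512-129208737 (0.99, limma adjusted p = 0.114) and A_30_P01023455 at chr7:88668948-88678046 (0.94, limma adjusted p = 0.149), with gaps of 0.05 to 0.1.

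The chromosome 5 probes of these lists were neighbours. Between their intervals lay 25515 bases, and both are read on the forward strand. Of the 12 lincRNA probes within 100 kb, all forward and the called probe among them, 11 had a higher mean in Aid-/- clones, 4 of them by more than 1 on the log2 scale, and 5 were members. Around the other called probe, A_30_P01025542, 8 of 18 had a higher mean in Aid-/- clones, 2 of them by more than 1, itself included. A_30_P01031709 of the called region read -4.52 to -3.69 in Aid-/- and -7.32 to -4.35 in Aid+/+ clones, which overlap (difference 1.59, limma adjusted p = 0.138). A_30_P01021193, detected on 11 arrays, read -3.61 to -2.67 against -5.4 to -4.32 with no overlap (1.28, limma adjusted p = 0.0523). Only the called probe passed the threshold. In all 4 probes over 1 the lowest clone was 967B4, at -7.32 to -5.4, which also had the lowest fibroblast marker level, and that level was higher on average in Aid-/- clones. The part of the fibroblast markers in these differences was not tested, and fewer cells of a type and less RNA per cell cannot be told apart.

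Probes of the same region did not always share a state. For 472 pairs of members on the same strand of a region the state was the same on 7.78 of 12 arrays on average, for 239 pairs on opposite strands of an interval on 6.79, and for 1125039 pairs from different intervals on 6.31. Pairs of different intervals within 100 kb came to 6.96 (736 pairs). All 12 arrays were the same in 3.18% of the same-strand pairs, but in 6 of the 7 same-strand pairs in which both gaps were over 1. Pairs share arrays, and these are descriptions.

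Regions with the most members were mixed. They were chr16:59557120-59602070 (reverse), chr17:3198868-3394643 (forward) and chr19:53517903-53540753 (reverse), each with 5 members of 10 probes. In these, 4, 5 and 3 of the other probes were detected on all 12 arrays, and no member of them was called by series. On chr16 the members averaged -5.68 to -3.88 by series, while A_30_P01019030 of the same strand read -0.23 to 0.1. Of 3601 other probes in regions that held a member, 57.6% were detected on 0 to 2 arrays and 42.4% on 10 to 12, and in 76 regions every probe was a member.

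In position the variably detected probes resembled the rest. Members made up 8.02% of the lincRNA probes of chromosome 11, the lowest share, and 12.6% of those of chromosome 18, the highest. Of the members 49.5% were on the forward strand, against 46.5% of lincRNA probes detected on all arrays and 55.2% of those on none. The median region spanned 14210 bases for members, 14280 for probes on all arrays and 12180 for those on none. No annotation of the mm9 build was used, so neighbouring genes are not named, and 114 of 1023 intervals held members on both strands.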

How the data were processed

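Total RNA of 12 iPS cell clones (6 Aid+/+, 6 Aid-/-) was labelled with Cy3 and hybridised to 1-colour Agilent arrays (design 028005, build mm9). Per the file headers, the deposited intensity values and detection flags came from Agilent Feature Extraction, already background-subtracted. The authors also deposited log2 values normalised to the 75th percentile of each array in GeneSpring GX 11. Here log2 intensities were centred on each array's 75th percentile, spots flagged as outliers were left out (2 values among the members) and spots of a probe were averaged. All 55681 non-control probes were fitted with limma 3.58.1 (R 4.3.3) with Benjamini-Hochberg adjustment over all of them, once with a mean per genotype and once with a mean per series, with calls at an adjusted p under 0.05 and, for contrasts, over 2-fold, the thresholds of the methods. The fits were tested on simulated data. "At least" folds set an undetected clone at the higher of its own level and its array's detection limit. That limit is the level that best divides detected from undetected probes, added after seeing the data. Folds against the lowest detected signals used the lowest signal of the array in place of the limit. That signal was -7.27 to -6.33, near many undetected levels, so these folds come close to the plain difference and are no firm bounds. Of 28685 accessions on the array 27235 matched a RefSeq symbol, used for the markers only. A check of the genotype labels on the arrays is not reported here. Named probes were those detected in all clones of 1 genotype or series only (up to 10 and 3), the 5 largest gaps, genotype calls, the 3 smallest adjusted p per direction of each series contrast, and the 3 regions with the most members. Members and lists were chosen with earlier results of these data known. Clones were treated as the replicates. The 6 clones of a genotype came from only 2 series, and clones of a series were alike. Genotype p-values and SDs that take the 6 as independent can therefore overstate precision. Alternatives were normexp background correction, quantile and other scaling, the deposited values, filters, blocks, other member rules and leaving out each clone.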

Additional observations from a re-analysis of the deposited data

Results flagged for a closer look

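For 4 probes the genotype difference depended on the series compared. The difference for experiment 979 (979F minus 979B) minus that of the other clones (the slide 3 Aid-/- series minus 967B) was -6.73 for A_30_P01021308 (limma adjusted p = 0.000218), -6.6 for A_30_P01030974 (limma adjusted p = 0.00653) and -4.8 for A_30_P01027538 (limma adjusted p = 0.0148), all of the chromosome 13 region, and -3.43 for A_30_P01031606 of chromosome 4 (limma adjusted p = 0.0238). For the first, the difference within experiment 979 was -6.17 and that of the other clones was 0.56. Of all members 5 were called for this difference (0.333%, against 0.106% of all probes and 0.269% of the gene probes of the same breadth), all lower.

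A clone lay far from the other 5 of its genotype in 5 of 56 groups examined. The probes were named for their levels or detection in these data, so no chance rate can be set beside that count. A_30_P01023419 read -3.93 in 979B4 against -7.25 to -6.68 in the other Aid+/+ clones. A_30_P01019747 read -6.84 in 967B6 against -5.63 to -5.02, and -4.91 in 981E4 against -4.66 to -4.6. A_30_P01032177 of chromosome 6, detected in 967B only, read -6.38 in 981E4 against -5.43 to -4.93, and A_30_P01018437 of chromosome 1, detected in the slide 3 Aid-/- series only, read -6.6 in 979F1 against -4.88 to -4.41.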

How the results depend on the processing

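Of 32 called differences of named probes, all kept their direction in the 584 alternative values and 445 of these passed both thresholds. The 32 were picked as called, and leaving out a clone outside a contrast cannot change its estimate. The kept direction was therefore in part fixed in advance. Under normexp background correction 5 of 32 passed both thresholds. By that correction the members called were 0 by genotype, 45 by series, 2 on slide 3 and 3 within experiment 979, against 2, 99, 65 and 20 as reported. Fitting only probes detected on at least 3 arrays gave 6, 171, 103 and 32. Members on 4 to 8 arrays gave 0, 54, 36 and 6, and an adjusted p under 0.01 gave 0, 18, 18 and 4. For the genotype, quantile normalization gave 4 calls, the intensity trend with robust estimation 6, the methods' t-test 5, a fixed slide block, which leaves only slide 3, gave 65, the series fit 21, a random slide or series block 0, members chosen by a common level 0, and members by the looser flag for signals above background 1. That flag gave 38 on slide 3, with 2899 members of which 35 are shared, and the trend gave 13 within experiment 979. The cause was not tested. Leaving out each clone gave 0 to 4 calls by genotype, 37 to 158 by series, 27 to 99 on slide 3 and 4 to 37 within experiment 979. The genotype difference in members detected per clone was 3.17 with members on 4 to 8 arrays, 0.333 with a common level and -89.4 to 27.9 leaving out each clone, with positive values for 6 clones left out. The common level and its members were chosen after seeing the data. No paired analysis was possible because replicate numbers in a genotype only name clones and no label pairs an Aid+/+ with an Aid-/- clone. Signal near background limits all members: a probe that was not detected has only a bound.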

Other observations

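Series 979F, 967B and the slide 3 Aid-/- series each had probes that no other series detected. Those with the largest gaps for 979F were A_30_P01025615 at chr1:161992257-161992963 (gap 0.72), A_30_P01031970 at chr2:115900355-115900904 (gap 0.63) and A_30_P01028385 at chr3:96074625-96086375 (gap 0.59), all forward. A_30_P01031970 read -0.45 in 979F2 but -4.39 and -4.1 in 979F1 and 979F3, and -7.23 to -5.01 elsewhere. For 967B they were A_30_P01028788 at chr14:43408099-43415349, A_30_P01032177 at chr6:40693617-40720167 and A_30_P01020559 at chr2:151992806-152025456, with gaps of 0.42, 0.19 and 0.1. For the slide 3 Aid-/- series they were A_30_P01023770 at chr16:91174611-91200786, A_30_P01023483 at chr7:26054813-26063725 and A_30_P01018437 at chr1:183142656-183163206, with gaps of 0.45, 0.23 and -0.03. Of these 9, the series F test called A_30_P01028385 and A_30_P01023483 (limma adjusted p = 0.0321 and 0.0377).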
